A study of Mus musculus with 8 samples.

Results

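Transcripts of 54 genes of Wnt signalling were followed in whole mouse hearts at postnatal day 4. The genes are the protein-coding rows of the deposited expression table whose symbols name a Wnt ligand, a Frizzled receptor, the co-receptors Lrp5 and Lrp6, an R-spondin or its receptors Lgr4 to Lgr6, a secreted antagonist (Sfrp, Frzb, Wif1 and Dkk genes), an Axin scaffold or a TCF/LEF factor. They are 54 of 54532 genes in the table, 22046 of which are protein-coding. They were selected by name, with earlier results of these data known. The cHET group (4 libraries) was Mrps5 fl/+; Myh6-Cre, and the control group (4 libraries) was made of littermates that were Mrps5 fl/+ without Cre, so every animal carried a floxed Mrps5 allele. Mrps5 is a building block of the mitochondrial ribosome, and the Myh6 promoter drives Cre in cardiomyocytes, which per the labels lose 1 allele late in embryonic life. Other cells of the heart keep both alleles but contribute RNA to the same library. With no Cre-only hearts among the groups, effects of Cre and of the lost allele cannot be told apart. The series describes the libraries of a group as biological replicates, and the comparison addresses gene expression after cardiac loss of 1 Mrps5 allele.

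Wnt ligands are secreted lipid-modified proteins that bind Frizzled receptors. Together with Lrp5 or Lrp6 they stop Axin and its partners from marking beta-catenin for destruction, and beta-catenin then acts with TCF/LEF factors on target genes. R-spondins bound to Lgr receptors keep Frizzled receptors on the cell surface, whereas Sfrp proteins and Wif1 bind the ligands and Dkk1-type proteins block the co-receptors. In the heart the pathway is known for its stage-dependent action on cardiac progenitors, for valve formation and for signals from the epicardium.

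Values are FPKM, a read count scaled by gene length and by the library's total, and can be compared between genes since they are per length. Libraries held 15490622 to 19234777 reads assigned to genes, rebuilt from the FPKM values. The total used for scaling was 0.9677 (control 1) to 1.0364 (cHET 2) times the library's own sum of these reads. Mrps5 itself stood at 6.84, 7.12, 6.995 and 7.68 FPKM in cHET 1 to 4, against 11.6, 6.27, 10.1 and 5.15 FPKM in control 1 to 4 (log2 fold change -0.13; limma, adjusted p = 0.849). The libraries labelled control 2 and control 4 lay below every cHET library, against their label, and the libraries labelled control 1 and control 3 above. Which exon is floxed is not given in the sources used here and other cells keep both alleles, so these values do not check the labels, and every library below is called by its label alone. Cardiomyocyte markers (Myh6, Tnnt2, Actc1, Ryr2 and Ttn) were high in every library, at a summed 8457 to 11760 FPKM in cHET and 8196 to 9940 FPKM in control. Some libraries stood apart. The summed atrial genes Myl7, Sln, Nppa and Myl4 were at 240.5 FPKM in cHET 3 and at 1459 to 5277 FPKM elsewhere. The brown fat gene Ucp1 read 17.8 FPKM in control 1, 16.7 FPKM in control 2 and at most 6.56 FPKM in the others. The summed erythroid genes Hba-a1, Hbb-bs and Alas2 were at 7300 FPKM in control 2 and at 918.1 to 2291 FPKM elsewhere. By Xist and Ddx3y, cHET 1, control 1 and control 3 were male and the others female. Summed epicardial markers were 36.2 to 50.8 FPKM in cHET and 52.1 to 87.2 FPKM in control, and summed markers of the G2/M phase 76.0 to 110.7 FPKM in cHET and 44.6 to 66.4 FPKM in control, with no overlap for either list. In both lists of 5 genes 0 genes were called (limma), and none was at 0 in every library. At an unadjusted limma p under 0.05, 5 of 5 G2/M genes were higher, beside 5.03% of all genes tested. By the same measure 3 of 5 epicardial genes were lower, beside 3.92%. How far these differences between libraries bear on the values below was not tested.

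Transcripts of inhibitors and receptors made up most of the Wnt signal in these hearts, and ligand transcripts were scarce. The 54 genes summed to 139.3 to 244.6 FPKM per cHET library and 168.7 to 238.8 FPKM per control library. The 10 secreted antagonists gave 85.2 ± 41.1 FPKM in cHET and 84.3 ± 26.95 FPKM in control (SD, n = 4 each), the 10 Frizzled genes 51.5 ± 1.67 and 49.4 ± 5.95 FPKM, and the 19 Wnt ligands 11.2 ± 1.34 and 12.7 ± 1.78 FPKM. Dkk3 (mean over all libraries 37.3 FPKM), Sfrp2 (24.4), Sfrp1 (14.7), Fzd2 (13.2) and Fzd4 (10.7) were the 5 genes above 10 FPKM. A mean of at least 1 FPKM was reached by 25 genes, which were tested; Tcf7 lay just inside at 1.09 FPKM and Fzd3 just outside at 0.942 FPKM. Of the rest, 13 genes had a mean of 0.1 to 1 FPKM and 13 a lower one. Wnt1, Wnt3a and Rspo4 had no read in any library, and a count of 0 allows up to 3 reads, which for these genes is 0.0545 to 0.0815 FPKM per library (counting error only).

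**Figure D1:**
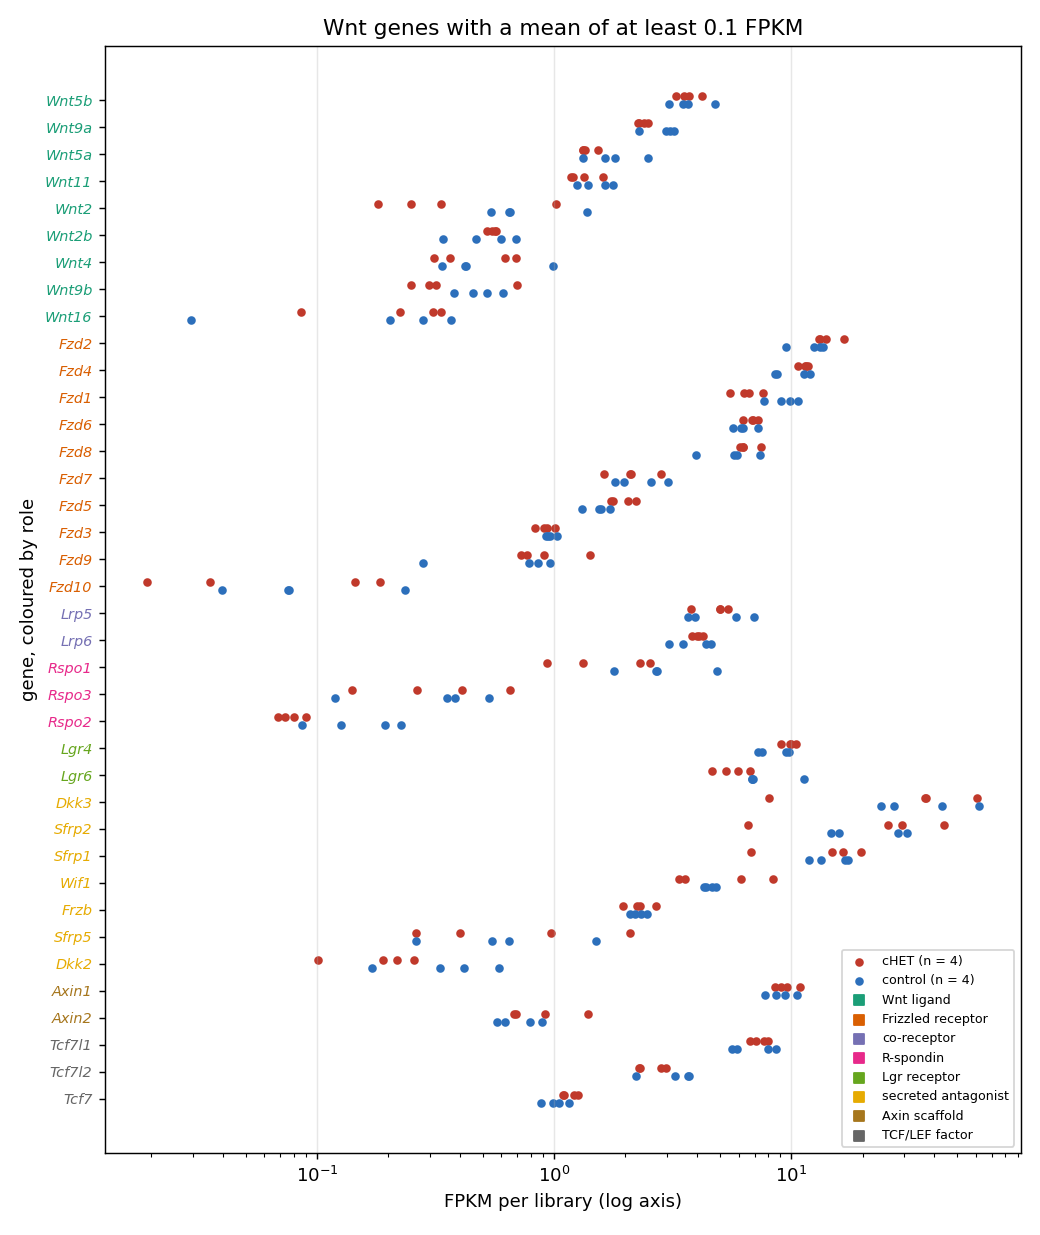
FPKM of each library (x axis, log scale) for the 38 Wnt genes with a mean of at least 0.1 FPKM (y axis, ordered by role and then by level), with cHET libraries in red above control libraries in blue. Dkk3 and Sfrp2 are the most abundant genes and spread widely, with 1 cHET library (cHET 3) far to the left, while most receptor genes have narrow and overlapping groups.

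None of the 25 tested Wnt genes passed the test between cHET and control (limma on log2(FPKM + 1), adjusted over 13029 genes; lowest adjusted p = 0.337). Of all genes tested 0.023% were called higher and 0.0% lower. At an unadjusted limma p under 0.05, 0 Wnt genes were higher and 2 were lower (Fzd1 and Lgr6), where the background was 5.03% higher and 3.92% lower. Groups did not overlap for 1 gene higher in cHET (Fzd5, 4.0% of tested members), against 2.74% of all genes tested. They did not overlap for 2 genes lower in cHET (Fzd1 and Lgr6, 8.0%), against 2.0% of all genes tested. With fewer libraries more genes do not overlap. The higher count was 2 (8.0% of tested members) without cHET 2, without control 2 or without control 3, beside 4.5 to 5.3% of all genes. The lower count was 4 of 25 tested members without control 4, a larger share than the 5.39% of all genes. It was 7 of 25 without both control 1 and control 2, a larger share than the 8.17% of all genes. In that last setting the higher count was 2 of 25, a smaller share than the 10.1% of all genes. Whether these shares differ from those of all genes was not tested. Rescaled to a common sum per library (TPM), 0 members had groups that did not overlap, beside 3.26% of all genes higher and 1.13% lower. With a pseudocount of 0.1 and genes down to a mean of 0.1 FPKM, a setting chosen after seeing the data, 0 of 38 members were called, where 0.0398% of 20107 genes were called higher and 0.0% lower. Log2 fold changes ran from -0.52 to 0.22, with 13 of 25 above 0 (52.0%, beside 52.1% of all genes tested) and a median of 0.0069 beside 0.0086 for all genes tested. By role, 5 of 7 Frizzled genes lay above 0 and all 4 tested Wnt ligands below 0, of which Wnt5b turned above 0 with TPM scaling. These are fitted values and not calls. In whole-heart RNA, fewer cells of a type and less RNA per cell cannot be told apart.

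**Figure D2:**
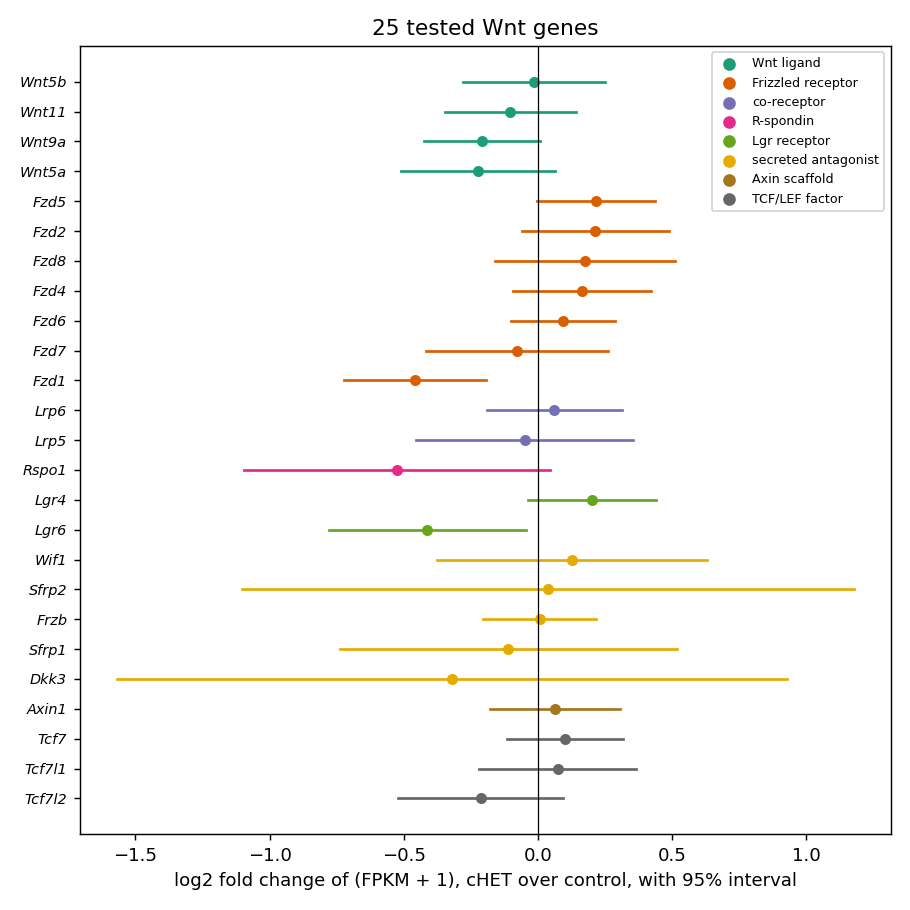
Log2 fold change on the FPKM + 1 scale, cHET over control (x axis), of the 25 tested Wnt genes (y axis, grouped by role), with bars for the 95% interval of limma. Only the intervals of Fzd1 and Lgr6 leave out 0 before any adjustment, and the widest are those of Dkk3 and Sfrp2.

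Among the Wnt genes, Fzd1 had the smallest p-value, and it did not pass the test. Frizzled proteins are the cell-surface receptors of Wnt ligands. Fzd1 (ENSMUSG00000044674, chromosome 5, 4753839 to 4758035 on GRCm38 as the table gives it, minus strand) had 6.62, 7.59, 5.50 and 6.30 FPKM in cHET 1 to 4, against 7.70, 9.04, 10.7 and 9.86 FPKM in control 1 to 4. Every cHET library lay below every control library, though cHET 2 and control 1 were nearly level. Its log2 fold change was -0.46 (95% interval -0.72 to -0.20; limma, adjusted p = 0.337), at 371 to 706 reads per library. The unadjusted p was under 0.05 in each of 22 settings, while the adjusted p stayed at 0.0937 or more. With the TPM scaling the value was -0.37 and the groups overlapped.

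The share of Fzd1 among all Frizzled transcripts does not depend on how a library is scaled. Fzd1 took 12.7, 15.1, 11.0 and 11.8% of the summed FPKM of the 10 Frizzled genes in cHET 1 to 4, against 18.2, 19.5, 19.5 and 18.3% in control 1 to 4. The groups lay apart, and Fzd1 was the 1 gene of the 10 for which this share did not overlap. Fzd2, the most abundant receptor gene, took 25.4 to 31.0% in cHET and 22.5 to 29.2% in control. Fzd4, which also binds the ligand norrin, took 21.3 to 23.4% and 18.4 to 22.3%. The shares were looked at after the FPKM values and are a description with no test.

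**Figure D3:**
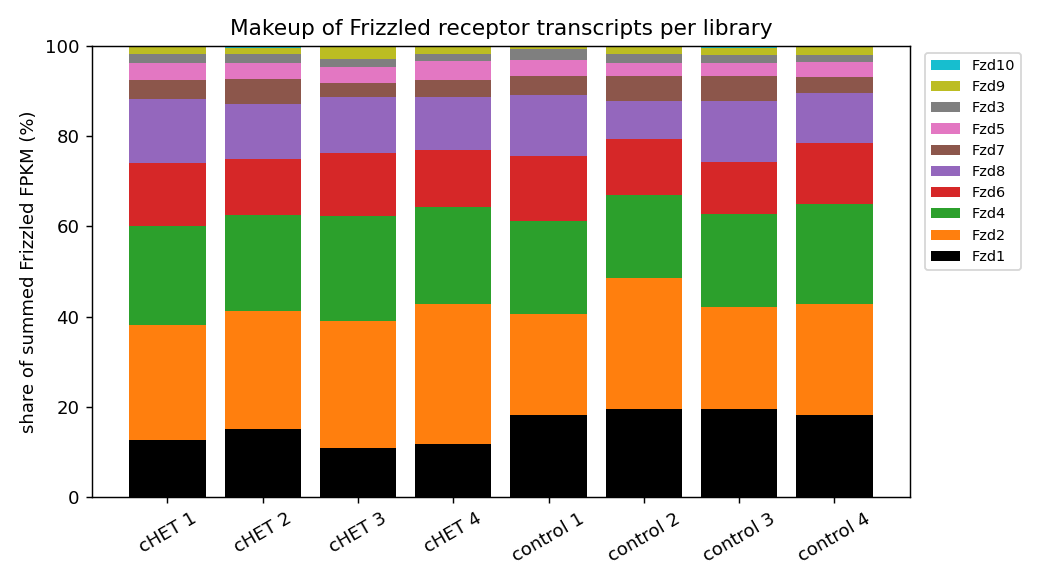
Share of each Frizzled gene in the summed Frizzled FPKM (y axis, percent) for each library (x axis, cHET left of control). The black segment at the bottom is Fzd1, which spans 11.0 to 15.1% in the cHET libraries and 18.2 to 19.5% in the control libraries.

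The other Frizzled genes had fitted values closer to 0. Fzd5 (ENSMUSG00000045005, chromosome 1, 64730558 to 64737751, minus strand), of the same branch of the family as Fzd8, had 2.06, 1.78, 1.74 and 2.22 FPKM in cHET 1 to 4, against 1.55, 1.31, 1.58 and 1.72 FPKM in control 1 to 4. All cHET libraries lay above all control libraries, with cHET 3 and control 4 nearly level (log2 fold change 0.22, 95% interval -0.0035 to 0.43; limma, adjusted p = 0.566). Exons of Fzd5 share 17.8% of their bases with Gm38058 on the opposite strand, and whether strand was used in counting is not given. With TPM scaling, quantile normalization or voom the Fzd5 groups overlapped. Fzd2 (ENSMUSG00000050288, chromosome 11, 102604396 to 102608058) had 13.2, 13.1, 14.1 and 16.6 FPKM in cHET 1 to 4, against 9.54, 13.6, 12.4 and 13.2 FPKM in control 1 to 4. Its groups overlapped (0.21; limma, adjusted p = 0.638), and without control 1 the value was 0.11. Fzd4 (ENSMUSG00000049791, chromosome 7, 89404355 to 89413134) had 11.4, 10.7, 11.7 and 11.5 FPKM in cHET 1 to 4, against 8.68, 8.54, 11.3 and 12.01 FPKM in control 1 to 4. The control libraries formed a low pair and a high pair, and the cHET libraries lay close together (0.16; limma, adjusted p = 0.674). Fzd6, a receptor known from planar cell polarity, Fzd7 and Fzd8 had log2 fold changes of 0.092, -0.078 and 0.17. Fzd3, Fzd9 and Fzd10 were under the level for testing, with means of 0.942, 0.835 and 0.101 FPKM.

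The start regions of 3 receptor genes are shown because these are the members whose groups did not overlap, and that of Fzd7 because it is a tested Frizzled gene that holds a TCF/LEF word. Each run has 250 bases before and 50 bases after the start site (RefSeq, GRCm38.p6), 5′ to 3′ on the gene's own strand. The word searched on both strands was the TCF/LEF core CTTTG followed by a pair of bases that are each A or T, and a match is in capitals. The RefSeq start lay 181 bases from the 5′ end of the gene in the expression table for Fzd1, 277 bases from it for Fzd7 and within 1 base for Fzd5 and Lgr6.
Fzd1 (chr5:4758167-4758466, minus strand): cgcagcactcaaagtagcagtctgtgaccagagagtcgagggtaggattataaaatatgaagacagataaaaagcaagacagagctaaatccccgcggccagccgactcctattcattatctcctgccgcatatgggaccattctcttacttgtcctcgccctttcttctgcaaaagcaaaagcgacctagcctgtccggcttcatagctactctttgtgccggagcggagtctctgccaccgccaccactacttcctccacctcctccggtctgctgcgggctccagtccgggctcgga
Lgr6 (chr1:135105227-135105526, minus strand): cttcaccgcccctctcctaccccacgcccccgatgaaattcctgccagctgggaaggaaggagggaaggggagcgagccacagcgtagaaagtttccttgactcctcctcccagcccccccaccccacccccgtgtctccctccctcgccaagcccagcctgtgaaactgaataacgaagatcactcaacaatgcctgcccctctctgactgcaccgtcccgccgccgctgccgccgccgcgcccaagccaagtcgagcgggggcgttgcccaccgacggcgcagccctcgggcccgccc
Fzd5 (chr1:64737701-64738000, minus strand): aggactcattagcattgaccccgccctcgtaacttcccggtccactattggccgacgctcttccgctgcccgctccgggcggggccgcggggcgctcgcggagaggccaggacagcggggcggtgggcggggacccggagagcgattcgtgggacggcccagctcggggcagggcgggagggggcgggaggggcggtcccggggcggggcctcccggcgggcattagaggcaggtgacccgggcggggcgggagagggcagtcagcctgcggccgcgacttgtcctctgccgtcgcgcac
Fzd7 (chr1:59481897-59482196, plus strand): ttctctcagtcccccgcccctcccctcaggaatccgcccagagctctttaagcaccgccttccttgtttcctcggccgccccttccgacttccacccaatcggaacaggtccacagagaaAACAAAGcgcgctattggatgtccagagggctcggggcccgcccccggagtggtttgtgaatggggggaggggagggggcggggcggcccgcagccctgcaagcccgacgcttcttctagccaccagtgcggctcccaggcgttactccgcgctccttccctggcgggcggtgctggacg
The Fzd7 window holds 1 word, on the opposite strand, starting at position -130 from the start site, and the other 3 windows hold none. Of 32850 RefSeq windows, 16.9% hold at least 1 such word, and of 44 windows of 36 member genes 15.9% do (7 windows). Beside Fzd7, these belong to Dkk1, Lef1, Tcf7l2, Wnt11, Wnt3 and Wnt5b. The matching windows of Lef1, Tcf7l2 and Wnt5b are at other start sites. These lie 45823, 153511 and 94961 bases from the 5′ end of the gene in the expression table. The windows of these genes nearest that end hold 0 words. A match is a description of the letters and not a binding site.

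The Lgr receptors of R-spondins stood on opposite sides of 0. Lgr6 (ENSMUSG00000042793, chromosome 1, 134983301 to 135105276, minus strand), known as a marker of stem cells in the skin, had 6.68, 5.32, 4.65 and 5.98 FPKM in cHET 1 to 4, against 11.3, 6.91, 6.85 and 6.85 FPKM in control 1 to 4. The groups did not overlap, 3 control libraries were almost equal, and control 1 stood far above them. The log2 fold change was -0.41 (95% interval -0.78 to -0.045; limma, adjusted p = 0.523). Its unadjusted p was under 0.05 in 16 of 22 settings, and without control 1 the fold change was -0.25 (-0.51 to 0.0062; limma, adjusted p = 0.843). Lgr4 (ENSMUSG00000050199, chromosome 2, 109917647 to 110014257), the more widely expressed relative, had 9.88, 9.05, 10.02 and 10.5 FPKM in cHET 1 to 4, against 7.51, 7.27, 9.48 and 9.75 FPKM in control 1 to 4. The groups overlapped, since cHET 2 lay below control 3 and control 4 (0.20; limma, adjusted p = 0.609). The ratio of Lgr4 to Lgr6, chosen after the values were seen, was 1.48, 1.70, 2.15 and 1.76 in cHET 1 to 4, against 0.664, 1.05, 1.39 and 1.42 in control 1 to 4. Every cHET ratio was above every control ratio, with a small gap between cHET 1 and control 4. Lgr5, the stem cell marker of the gut, had 20 reads in all 8 libraries together.

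**Figure D4:**
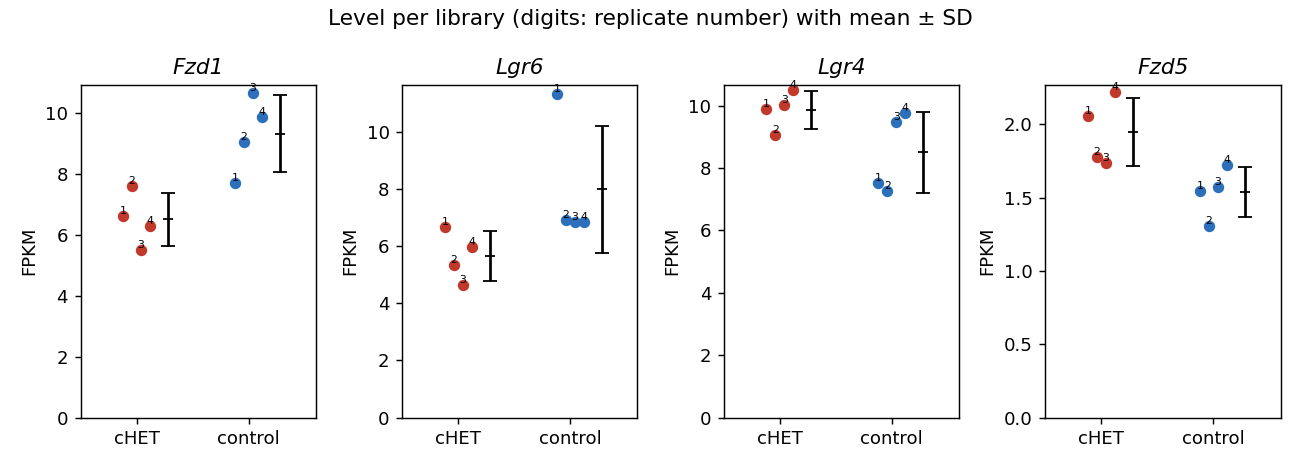
FPKM per library (y axis, from 0) of Fzd1, Lgr6, Lgr4 and Fzd5, with cHET in red left of control in blue, digits for the replicate number and bars for mean ± SD (n = 4). Groups do not overlap for Fzd1, Lgr6 and Fzd5, and the Lgr6 value of control 1 (11.3 FPKM) stands alone.

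R-spondins were low in these hearts. Rspo1 (ENSMUSG00000028871, chromosome 4, 124986430 to 125009099) had 1.33, 2.30, 0.932 and 2.53 FPKM in cHET 1 to 4, against 2.69, 4.86, 2.71 and 1.80 FPKM in control 1 to 4. The groups overlapped, control 2 was highest and cHET 3 lowest. Its fitted value was the lowest among the 25 tested Wnt genes, at -0.52 (95% interval -1.09 to 0.045; limma, adjusted p = 0.585), on 29 to 152 reads per library. It was -0.33 without control 2 and -0.77 with voom. Rspo1 and the summed epicardial markers were both highest in control 2 (87.2 FPKM for the sum) and both lowest in cHET 3 (36.2 FPKM). Other libraries broke that order: cHET 4 had 2.53 FPKM of Rspo1 at a sum of 48.2 FPKM, and control 4 had 1.80 FPKM of Rspo1 at the second highest sum (57.2 FPKM). All 5 epicardial markers were measured. Msln stood at 11.6 ± 3.94 FPKM in cHET and 22.1 ± 7.05 FPKM in control, Upk3b at 6.75 ± 2.77 and 14.8 ± 7.58 FPKM, and Upk1b at 1.99 ± 0.782 and 4.70 ± 2.98 FPKM (SD, n = 4 each). Aldh1a2 stood at 20.1 ± 2.52 FPKM in cHET and 17.8 ± 3.40 FPKM in control, and Wt1 at 2.93 ± 0.591 and 2.92 ± 0.329 FPKM. The part of these markers in the Rspo1 values was not tested. Rspo3 (ENSMUSG00000019880, chromosome 10) had 0.265, 0.649, 0.141 and 0.410 FPKM in cHET 1 to 4, against 0.354, 0.381, 0.533 and 0.119 FPKM in control 1 to 4, on 6 to 40 reads. Its groups overlapped widely. Rspo2 had a mean of 0.118 FPKM.

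Of 19 Wnt ligand genes 4 were tested, and each had a fitted value below 0 with an interval that holds 0. Wnt5b (ENSMUSG00000030170, chromosome 6, 119432531 to 119544347, minus strand), the most abundant, had 3.703, 3.54, 3.26 and 4.19 FPKM in cHET 1 to 4, against 3.06, 4.76, 3.51 and 3.66 FPKM in control 1 to 4. The groups lay on top of each other (log2 fold change -0.014, 95% interval -0.28 to 0.25; limma, adjusted p = 0.973), and the sign turned with TPM scaling (0.0631). Wnt9a (ENSMUSG00000000126, chromosome 11, 59306928 to 59333552) had 2.48, 2.40, 2.26 and 2.28 FPKM in cHET 1 to 4, against 2.98, 2.29, 3.08 and 3.21 FPKM in control 1 to 4. Control 2 lay inside the cHET range, and the other control libraries above it (-0.21, 95% interval -0.42 to 0.0091; limma, adjusted p = 0.574). Wnt5a and Wnt11, ligands that mostly act without beta-catenin, averaged 1.38 ± 0.0962 and 1.34 ± 0.198 FPKM in cHET and 1.81 ± 0.485 and 1.51 ± 0.233 FPKM in control (SD, n = 4 each). Their log2 fold changes were -0.22 and -0.10 (limma, adjusted p = 0.638 and 0.764).

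The remaining ligands stood under 1 FPKM. Wnt2, Wnt2b, Wnt4, Wnt9b and Wnt16 had means of 0.229 to 0.625 FPKM. On the plain FPKM scale Wnt2 spread most of these between libraries, with 0.182, 1.02, 0.248 and 0.332 FPKM in cHET 1 to 4, against 0.542, 1.37, 0.646 and 0.650 FPKM in control 1 to 4. In each group the second replicate was the highest, and the groups overlapped through cHET 2. With the pseudocount of 0.1, Wnt2 had a log2 fold change of -0.87 (95% interval -1.89 to 0.16; limma, adjusted p = 0.654) on 7 to 50 reads per library. The other 10 ligands had means under 0.1 FPKM, and the canonical ligands Wnt1, Wnt3 and Wnt3a had 0, 2 and 0 reads in all libraries together.

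By mean summed FPKM, with Dkk3 counted among them, secreted antagonists were the most abundant Wnt transcripts. In cHET 3 they were not, at a sum of 32.04 FPKM beside 50.17 FPKM for the Frizzled genes. The antagonist sum varied between libraries far more than between groups. Dkk3 (ENSMUSG00000030772, chromosome 7, 112116017 to 112159057, minus strand), a divergent member of the Dickkopf family, had 36.9, 60.8, 8.03 and 36.6 FPKM in cHET 1 to 4, against 27.1, 43.1, 61.8 and 23.8 FPKM in control 1 to 4. Sfrp2 (ENSMUSG00000027996, chromosome 3, 83766321 to 83774316) had 25.6, 43.9, 6.57 and 29.3 FPKM in cHET 1 to 4, against 14.7, 28.1, 30.9 and 15.97 FPKM in control 1 to 4. In both genes cHET 3 was the lowest library of all, and the groups overlapped. The log2 fold changes were -0.32 for Dkk3 (95% interval -1.57 to 0.93; limma, adjusted p = 0.854) and 0.036 for Sfrp2 (-1.10 to 1.18; limma, adjusted p = 0.984). Without cHET 3 they were 0.25 for Dkk3 (-0.50 to 1.012; limma, adjusted p = 0.918) and 0.57 for Sfrp2 (-0.10 to 1.24; limma, adjusted p = 0.868).

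Dkk3 and Sfrp1 were lowest and highest in the same libraries as the atrial genes. The summed atrial genes were lowest in cHET 3 (240.5 FPKM) and next in control 4 (1459 FPKM), and highest in cHET 2 (5277 FPKM) and control 3 (5117 FPKM). Dkk3 was lowest in the same pair, at 8.03 FPKM in cHET 3 and 23.8 FPKM in control 4. It was highest in the same pair too, at 60.8 FPKM in cHET 2 and 61.8 FPKM in control 3. Sfrp2 shared the top pair and the lowest library, but its second lowest was control 1. Sfrp1 (ENSMUSG00000031548, chromosome 8) had 16.5, 19.6, 6.79 and 14.9 FPKM in cHET 1 to 4, against 16.9, 13.4, 17.4 and 11.8 FPKM in control 1 to 4. It was lowest in cHET 3 and control 4 and highest in cHET 2 and control 3 (-0.11; limma, adjusted p = 0.903). Without cHET 3 the value was 0.19. Control 2 broke the atrial order: its atrial sum (4253 FPKM) was above that of cHET 4 (3680 FPKM), and its Sfrp1 was below. Summed fibroblast markers were also lowest in cHET 3, at 247.7 FPKM, beside 259.8 to 419.9 FPKM in the other libraries. Atrial marker Myl7 was at 69.0 FPKM in cHET 3 and at 643.5 to 3775 FPKM elsewhere, and none of the 4 atrial markers was at 0. The part of atrial tissue in the antagonist values was not tested.

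**Figure D5:**
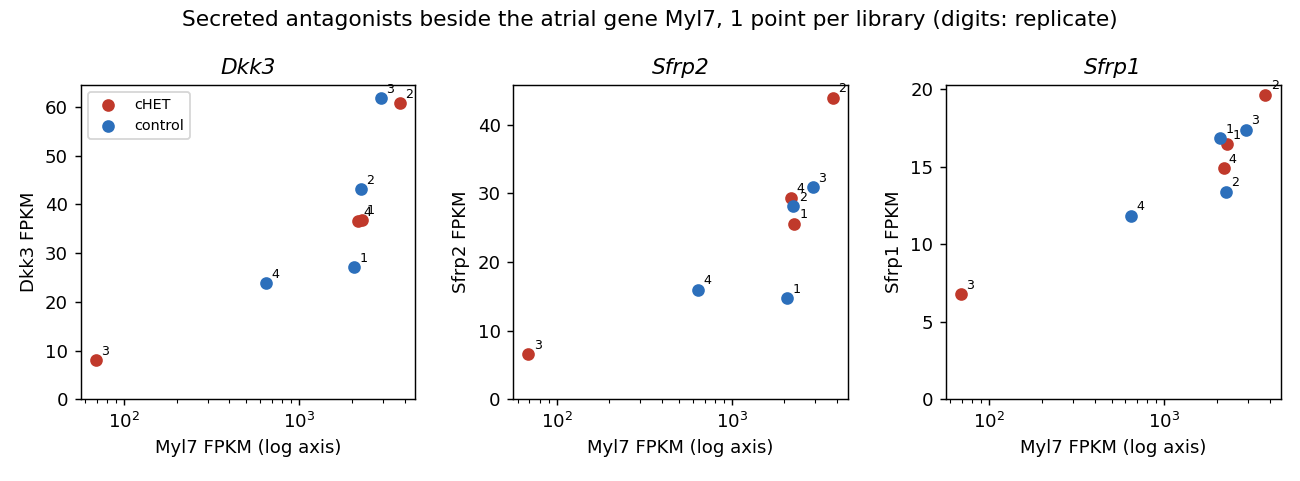
FPKM of Dkk3, Sfrp2 and Sfrp1 (y axes, from 0) against FPKM of the atrial gene Myl7 (x axis, log scale), 1 point per library, with cHET in red, control in blue and digits for the replicate number. The library cHET 3 (Myl7 at 69.0 FPKM) is lowest in all 3 genes and cHET 2 (3775 FPKM) is highest in Sfrp2 and Sfrp1.

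Wif1 had another order. Wif1 (Wnt inhibitory factor) had 6.15, 3.35, 8.34 and 3.56 FPKM in cHET 1 to 4, against 4.30, 4.64, 4.36 and 4.81 FPKM in control 1 to 4. It was highest in cHET 3, where Dkk3 was lowest, and the control libraries lay within the cHET range (0.13, 95% interval -0.38 to 0.63; limma, adjusted p = 0.859). Without cHET 3 the value was -0.083. Frzb, which binds Wnt ligands through a Frizzled-like domain, averaged 2.29 ± 0.306 FPKM in cHET and 2.27 ± 0.162 FPKM in control (SD, n = 4 each), with a 95% interval of -0.20 to 0.22 for its log2 fold change, and it was lowest in cHET 3 and highest in cHET 4. Sfrp5 was highest in cHET 2 (2.09 FPKM) and control 3 (1.501 FPKM), as the summed atrial genes were. It was near its lowest in cHET 3 (0.262 FPKM), where the atrial sum was lowest. Its lowest value was in control 2 (0.261 FPKM), where the atrial sum was 4253 FPKM. Sfrp5, Dkk2, Sfrp4, Dkk1 and Dkk4 had means under 1 FPKM, from 0.834 down to 0.00612 FPKM.

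With all 8 libraries, co-receptors, scaffolds and nuclear factors had groups that overlapped in every tested gene. Without control 1 and control 2, Lrp5, Lrp6 and Tcf7l1 were lower in cHET with no overlap. They were among 7 of 25 tested members that were so, a larger share than the 8.17% of all genes. Tcf7 was higher with no overlap in that setting, beside 10.1% of all genes. Lrp5 (ENSMUSG00000024913, chromosome 19, 3584828 to 3686564, minus strand) had 3.77, 5.02, 5.41 and 4.99 FPKM in cHET 1 to 4, against 3.93, 3.67, 5.87 and 6.97 FPKM in control 1 to 4. Lrp6 (ENSMUSG00000030201, chromosome 6, 134446476 to 134566965, minus strand) had 4.25, 4.02, 4.09 and 3.82 FPKM in cHET 1 to 4, against 3.49, 3.05, 4.38 and 4.59 FPKM in control 1 to 4. In both genes control 1 and control 2 were low and control 3 and control 4 high, and the cHET libraries lay mostly between them. The log2 fold changes were -0.049 for Lrp5 (95% interval -0.45 to 0.35, turning to 0.0253 with TPM scaling and reaching -0.361 without control 1 and control 2) and 0.061 for Lrp6 (-0.19 to 0.31; limma, adjusted p = 0.935 and 0.866).

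Axin1 (ENSMUSG00000024182, chromosome 17, 26138688 to 26195811), the scaffold of the destruction complex, had 8.54, 9.61, 10.9 and 9.06 FPKM in cHET 1 to 4, against 8.63, 7.71, 9.45 and 10.6 FPKM in control 1 to 4. Its groups overlapped (0.064, 95% interval -0.18 to 0.31; limma, adjusted p = 0.852). Axin2 (ENSMUSG00000000142, chromosome 11, 108920349 to 108950783), a feedback target widely used as a readout of beta-catenin signalling, had 0.914, 1.39, 0.679 and 0.690 FPKM in cHET 1 to 4, against 0.573, 0.888, 0.794 and 0.621 FPKM in control 1 to 4. Only cHET 1 and cHET 2 lay above the highest control library. With a pseudocount of 0.1 its log2 fold change was 0.28 (95% interval -0.30 to 0.86; limma, adjusted p = 0.762), on 49 to 152 reads per library. Among the TCF/LEF factors, Tcf7l1 (ENSMUSG00000055799, chromosome 6), mostly a repressor, had 6.69, 7.66, 7.12 and 8.01 FPKM in cHET 1 to 4, against 5.64, 5.93, 8.59 and 8.01 FPKM in control 1 to 4. Tcf7l2 (ENSMUSG00000024985, chromosome 19) had 2.97, 2.82, 2.27 and 2.30 FPKM in cHET 1 to 4, against 3.69, 3.65, 3.23 and 2.21 FPKM in control 1 to 4. For Tcf7l2, 3 control libraries lay above every cHET library and control 4 lay below them all (-0.21; limma, adjusted p = 0.657), while without control 4 the value was -0.34 (limma, adjusted p = 0.266). The Tcf7l1 groups overlapped with all 8 libraries (0.073; limma, adjusted p = 0.861). Tcf7 had a log2 fold change of 0.10, and Lef1 had 85 reads in all libraries together.

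Other genes of the pathway, from a list of 72 that covers ligand secretion, further receptors, the destruction complex, nuclear partners, planar polarity and feedback inhibitors, gave 0 calls in either direction among 61 tested (limma, adjusted p of 0.44 or more). At an unadjusted p under 0.05, 3.28% (2 genes) were higher and 0.0% lower, beside 5.03% and 3.92% of all genes tested. A fitted value above 0 was found for 40 of 61 (65.6%, beside 52.1% of all genes tested), and the median log2 fold change was 0.063, beside 0.0086. The groups lay apart for 3 of these genes (4.92%, near the 4.74% of all genes tested), 2 higher in cHET (Daam1 and Vangl1) and 1 lower (Wls). Daam1, Vangl1, Ryk and Nkd1 are described because they had the smallest limma p-values of the list. Daam1, a formin that acts downstream of Dishevelled, averaged 19.5 ± 1.27 FPKM in cHET and 15.3 ± 2.33 FPKM in control (0.34). Vangl1, a planar polarity protein, averaged 4.76 ± 0.177 and 3.703 ± 0.582 FPKM (0.30). The Wnt receptor Ryk averaged 16.6 ± 1.74 and 14.3 ± 0.982 FPKM (0.21), and the feedback inhibitor Nkd1 1.58 ± 0.459 and 2.23 ± 0.587 FPKM (-0.32; SD, n = 4 each). Wls, which carries Wnt ligands to the cell surface, is outside that rule and was added after its values were seen. It averaged 12.4 ± 0.16 FPKM in cHET and 13.8 ± 1.11 FPKM in control (-0.14; limma, adjusted p = 0.617). Of 16 common target genes of the pathway 9 were tested, 6 of them above 0 with 0 calls. The sets overlap: of these 9, Tcf7 is a member counted above. Nkd1, Znrf3, Apcdd1, Wisp1, Tnfrsf19 and Bambi are also in the list of 72. The target Ccnd1, a cyclin chosen after its values were seen, averaged 19.4 ± 2.61 FPKM in cHET and 14.1 ± 5.29 FPKM in control (0.50; limma, adjusted p = 0.582). The targets Nkd1 (-0.32), Bambi (-0.24) and Tnfrsf19 (-0.16) lay below 0.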

How the data were processed

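RNA of 8 whole hearts was sequenced after poly-T bead selection, per the labels' protocols. The authors deposited FPKM values, 1 column per library, with the gene length in bases that they used as another column. HISAT2 2.0.5, featureCounts 1.5.0-p3, DESeq2 1.20.0 and build mm9 are named, without roles, per the submitters' processing notes. The table's coordinates match GRCm38: 98.3% of 54500 shared identifiers have the same start and end in GENCODE M21, and 52 of the 54 members do (not Fzd8 and Tcf7l2).

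FPKM times gene length came in whole multiples of the step of 1 read in every library (100% of values, within 0.05 reads), so reads were rebuilt. Tests used limma 3.58.1 under R 4.3.3 on log2(FPKM + 1) values (trend and robust, no covariate, two-sided, Benjamini-Hochberg over 13029 genes with a mean of at least 1 FPKM, threshold 0.05). Such fold changes understate the change of low genes. Libraries of a group differed well beyond sampling noise (chi-square of 13.0 or more per gene). For 6 tested members, exons share bases with a gene on the other strand.

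Members and lists were chosen with earlier results of these data known. Named with all values are members with groups that do not overlap or an unadjusted p under 0.05 and the 2 most abundant of each role. Wnt2, Sfrp1 and Wif1 are added with all values, and Wnt5a, Wnt11, Frzb and the target Ccnd1 with means and SD. Sfrp5 is added with the values of some libraries. All of these additions were chosen after their values were seen. Alternatives were other pseudocounts, filters, scalings, variance models, library weights, voom on rebuilt reads, sex as a covariate, a replicate block, protein-coding genes alone and libraries left out.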

Additional observations from a re-analysis of the deposited data

Results flagged for a closer look

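A library stood far from the other 3 of its group in 3 of 54 groups of values examined (27 genes in each group; chance gives about 1 in 20). Lgr6 was 11.3 FPKM in control 1, beside 6.84 to 6.91 FPKM in the other control libraries, and this gap was 0.985 of the whole range. Fzd8 was 7.47 FPKM in cHET 1, beside 6.06 to 6.25 FPKM in the other cHET libraries, with a gap of 0.865 of the range. Wnt5a was 1.53 FPKM in cHET 2, beside 1.32 to 1.35 FPKM in the other cHET libraries, with a gap of 0.848 of the range. Each share was above Dixon's critical value for 4 libraries.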

How the results depend on the processing

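No Wnt gene and no other gene of the pathway list was called in any of 21 alternative settings, and the lowest adjusted p of a Wnt gene was 0.0937 (Fzd1, limma library weights). The median log2 fold change of the tested Wnt genes stayed between -0.070 and 0.076. Medians of single libraries had a pooled SD of 0.0865 within groups. That is a spread of libraries and not of a difference between group means. Over all genes, 3 higher and 0 lower became 8 and 3 with library weights, 1 higher with the replicate block, and 8 higher with a pseudocount and a filter of 0.1 (chosen after seeing the data). Same-numbered libraries shared deviations with correlations of 0.286, 0.266, 0.0521 and 0.0572, so the numbers were not taken as pairs. The block left the values of the named genes in place (Fzd1 -0.458, Lgr6 -0.412) and called 0 members. Members with groups that do not overlap were 1 higher and 2 lower, beside 2.74% and 2.0% of all genes. With TPM scaling they became 0 and 0, beside 3.26% and 1.13%. Higher members became 0 with quantile normalization (2.63% of all genes) and with voom (2.61%). Without control 1 and control 2 there were 2 of 25 higher, a smaller share than the 10.1% of all genes. In the same setting 7 of 25 were lower, a larger share than the 8.17% of all genes. With 1 library left out there were 1 to 2 of 25 higher (all genes 3.33 to 6.11%) and 2 to 4 of 25 lower (2.56 to 5.39%). Signs turned for Wnt5b (0.0631 with TPM, 0.0414 with library weights, 0.0238 without control 1 and control 2), Lrp5 (0.0253 with TPM), Lrp6 (-0.0584 with library weights, -0.121 without both), Fzd4 (-0.0339 without both), Axin1 (-0.068 without both), Tcf7l1 (-0.0786 with library weights, -0.154 without both), Sfrp2 (-0.0703 with library weights, -0.0245 without both), Fzd8 (-0.0421 with library weights, -0.0257 without both) and Frzb (-0.00137 with voom). With 1 library left out, values ran from -0.086 to 0.0825 for Wnt5b, -0.166 to 0.0903 for Lrp5, -0.0243 to 0.131 for Lrp6, -0.671 to 0.254 for Dkk3, -0.288 to 0.569 for Sfrp2, -0.00423 to 0.132 for Axin1, -0.0128 to 0.164 for Tcf7l1, -0.279 to 0.189 for Sfrp1, -0.0832 to 0.284 for Wif1, -0.0488 to 0.0595 for Frzb and -0.174 to 0.0172 for Fzd7. The cause was not tested. Depth limits the members under 1 FPKM, such as Rspo3 at 6 to 40 and Fzd10 at 1 to 12 reads per library.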
